A study of Rattus norvegicus with 8 samples.

Results

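The amyloid precursor family and the secretases that cut it were followed in spinal motoneurons of Wistar albino rats at postnatal day 1 (P1), during myelination of their axons, and at postnatal day 21 (P21), after myelination is complete. The members are the precursor gene App, its relatives Aplp1 and Aplp2, the beta-secretase genes Bace1 and Bace2, the gamma-secretase genes Psen2 and Ncstn, and the alpha-secretase genes Adam10 and Adam17. They were chosen by name: every probe set annotated with exactly 1 of these symbols was taken, which gave 18 probe sets of 9 genes, out of 31042 probe sets on the array and 14217 genes with a symbol of their own. Each age had 4 biological replicates, each 1 Affymetrix RAE230 2.0 array hybridised with RNA of 1500 to 2000 laser-captured lumbar motoneurons from a pool of 4 rats. The rats came from 4 litters divided between the ages, and the labels name no transgene and no drug.

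The amyloid precursor protein is a single-pass membrane protein that neurons make in quantity and carry down their axons. Alpha-secretases, membrane proteases of the ADAM family, release its large outer part by a cut within the amyloid-beta stretch. Beta-secretase cuts at the start of that stretch, and gamma-secretase, a complex that works inside the membrane, then frees the amyloid-beta peptide. The same enzymes cut many other neuronal membrane proteins, among them adhesion molecules, sodium channel beta subunits and neuregulin 1, through which BACE1 takes part in the onset of myelination.

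Intensities are linear values as deposited. A change is log2(intensity + 16) at P21 minus that at P1, written ± its standard error, and an intensity is written ± SD, with 4 arrays per age throughout. A probe set was tested if it read above the 40th percentile of its array, a level of 221 to 287, on at least 4 of the 8 arrays. The test was limma's, fitted to all 19155 such probe sets, with calls made at an adjusted p under 0.05. Of the 18 member probe sets, 10 were tested, from 7 genes, and the other 8 read too low. Bace2 passed this filter through its P21 arrays alone.

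Of 7 motoneuron markers, 2 rose and 1 fell (27197 to 30167 in the sum at P1, 28824 to 34004 at P21). The neurofilament gene Nefh and the intermediate filament gene Prph, at means of 9181 and 7947 at P1, make up most of that sum. Chat, the enzyme that makes acetylcholine, rose by 1.32 and the transcription factor Isl2 by 0.33, while the transcription factor Isl1 fell from 790 ± 209 to 239.8 ± 84.4 (-1.67, adjusted p = 4.91e-04) and was above the filter level on 1 of 4 P21 arrays. Markers of other cells also moved with age. In the sums, 10 oligodendrocyte and myelin genes went from 7040 to 8895 at P1 to 33704 to 36305 at P21, and 8 of the 10 rose. Of 8 astrocyte genes, 6 rose and 1 fell (11354 to 12199 at P1, 16881 to 20190 at P21). Of 6 microglial genes, 4 rose (2111 to 3142 at P1, 4510 to 7424 at P21), and of 9 endothelial and mural genes, 6 rose (6839 to 8610 at P1, 10145 to 22219 at P21). Of 6 spinal interneuron genes, 4 fell and 1 rose (12959 to 13199 at P1, 6780 to 8899 at P21). P21 replicate 4 had the highest microglial sum and the highest endothelial and mural sum (22219, against 10145 to 17533 on the other P21 arrays). The collagen genes Col1a1 (8626) and Col1a2 (8464) made up most of the latter. The endothelial genes Cldn5, Pecam1, Vwf, Flt1 and Tek each read lowest on that array among the P21 arrays. Of the microglial genes, Lyz2 (3278) and Csf1r (1620) were highest there, while Aif1, C1qa, C1qb and C1qc were not. In such pools, fewer cells of a type and less RNA per cell cannot be told apart.

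**Figure D1:**
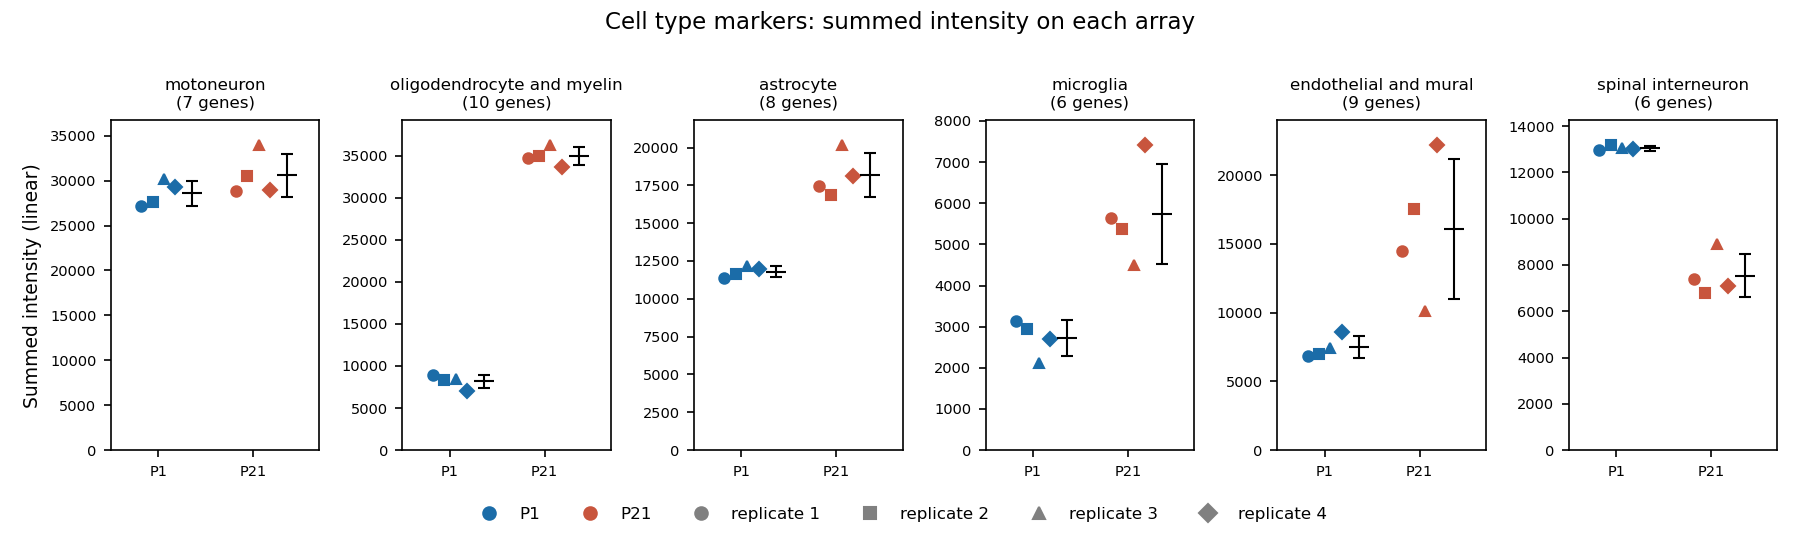
Summed linear intensity of the markers of 6 cell types on each array, by age; each point is 1 array with its replicate number as the symbol, and the bars are the mean ± SD of 4 arrays. Oligodendrocyte and myelin markers lie at 7040 to 8895 at P1 and at 33704 to 36305 at P21. P21 replicate 4 has the highest sums for endothelial and mural (22219, mostly Col1a1 and Col1a2) and microglial (7424, mostly Lyz2 and Csf1r) markers.

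Among the members, Bace2 rose steeply, Psen2 rose by a smaller amount and App fell on 1 of its 2 tested probe sets, while Aplp1, Aplp2, Ncstn and Adam17 did not pass. By probe set, 4 of 10 passed, 3 higher and 1 lower at P21. Of all tested probe sets 38.3% passed (20.8% higher, 17.4% lower), so the share of members that passed was close to that of the array as a whole. The ages did not overlap in 7 of the 10 member probe sets and in 38.0% of all tested probe sets. Both Bace2 probe sets are among the 3 rises and among the 7 without overlap. They passed the filter through their P21 arrays alone, so neither their calls nor their separation add support to these counts. With arrays centred on their medians, the share of calls that were higher went from 54.4% to 38.6% and the median change of all probe sets from 0.07 to -0.07, so that the sign of small changes depends on the scaling.

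**Figure D2:**
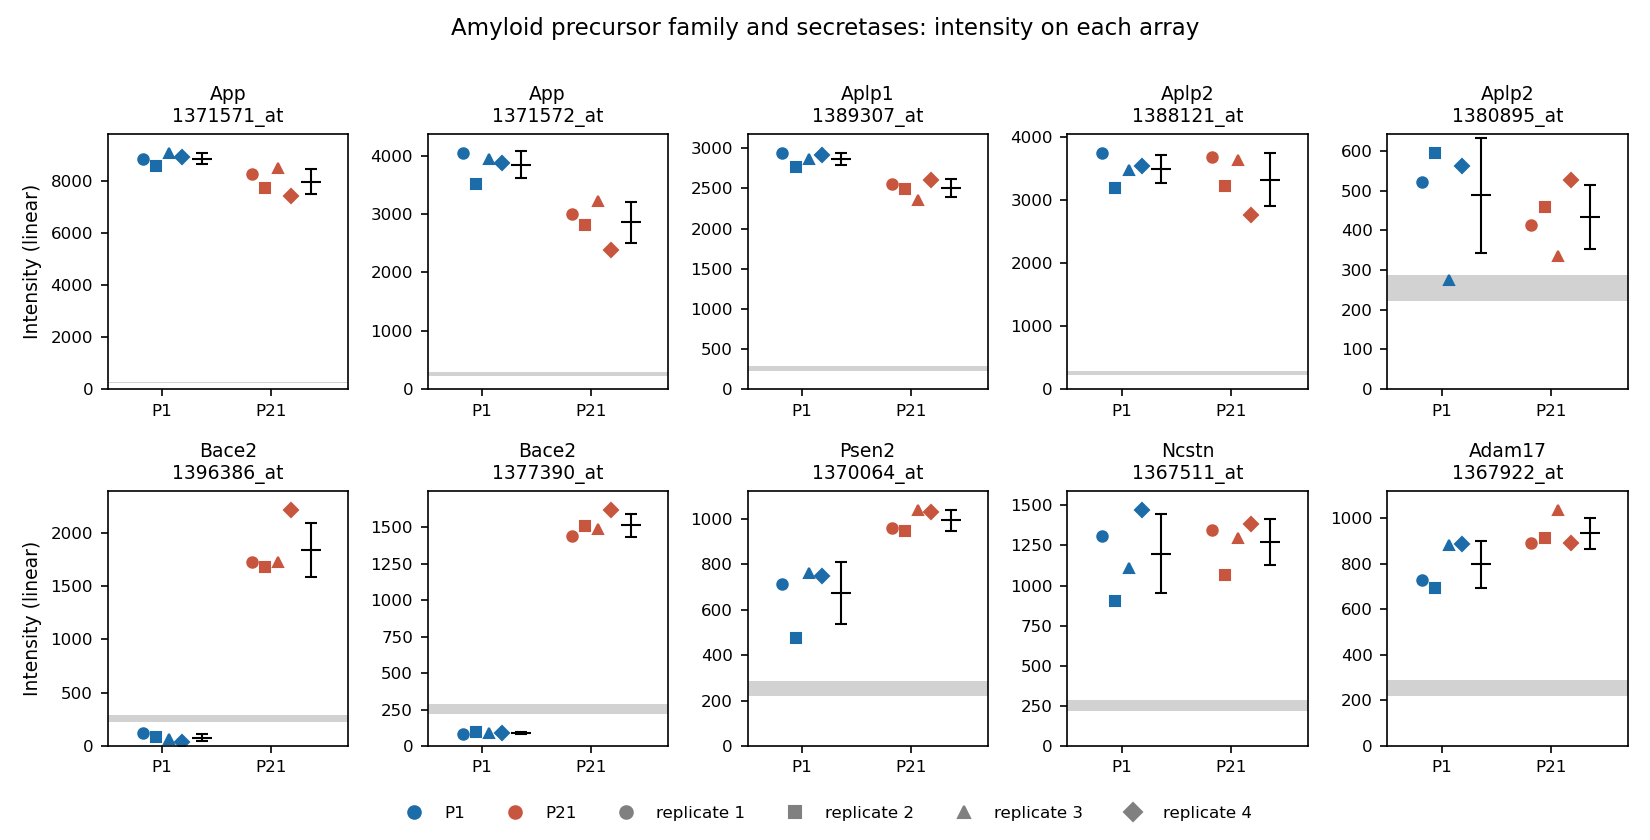
Linear intensity of the 10 tested member probe sets on each of the 8 arrays, by age; symbols give the replicate number, bars the mean ± SD of 4 arrays, and the grey band the filter level (221 to 287). The P1 arrays lie under the band for Bace2 alone, and P21 replicate 4 has the lowest App value on both of its probe sets.

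App, the precursor itself, was read by 2 bright probe sets. The probe set 1371572_at read 4042, 3515, 3945 and 3868 at P1 and 3001, 2817, 3222 and 2382 at P21. All 4 P21 arrays lay below all 4 P1 arrays, and P21 replicate 4 was the lowest. The change was -0.43 ± 0.11 (1.35-fold lower, adjusted p = 0.0123 by limma). Without P21 replicate 4 it was -0.35 (adjusted p = 0.0274).

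The brighter App probe set, 1371571_at, read 8837, 8571, 9069 and 8941 at P1 and 8259, 7735, 8497 and 7419 at P21. Here too the ages did not overlap, but the change of -0.15 ± 0.08 did not pass (adjusted p = 0.188). Its values exceeded those of 99.6% to 99.9% of the probe sets on the same array, where the brightest value of an array was 10572 to 11540. Probes this bright may no longer respond in proportion, so the reading does not exclude a larger difference in RNA. The mean of the 2 probe sets passed (-0.29, adjusted p = 0.0282). A further App probe set, 1380533_at, read 23.1 to 82.5 and was not tested.

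Aplp1, a relative of the precursor found mainly in neurons, read 2939, 2764, 2864 and 2913 at P1 and 2554, 2489, 2356 and 2610 at P21. The ages did not overlap, and the replicates of each age lay close together, 2870 ± 77.2 and 2502 ± 110 (SD, n = 4). The change of -0.20 ± 0.08 had a 95% interval of -0.38 to -0.02 before adjustment and did not pass over all probe sets (adjusted p = 0.0820). With the arrays centred on their medians it was -0.33 and passed (adjusted p = 0.0463).

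Aplp2, the relative made in most tissues, did not differ by the test. Its bright probe set 1388121_at read 3738, 3193, 3475 and 3543 at P1 and 3672, 3211, 3635 and 2764 at P21. The ages overlapped, with P21 replicate 4 again the lowest. The change was -0.08 ± 0.11 (95% interval -0.33 to 0.18, adjusted p = 0.623), and 0.01 without that array. A dimmer Aplp2 probe set, 1380895_at, had a change of -0.13 ± 0.24 (adjusted p = 0.694), with P1 replicate 3 at 276 against 522 to 594 on the other P1 arrays. The remaining 3 Aplp2 probe sets read 6.93 to 252 and were not tested.

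The changes of the relatives were set against that of App by the difference of log2 values on each array. For Aplp2 minus App it moved by 0.07 between the ages and for Aplp1 minus App by -0.05, by the brightest probe set of each (exact permutation test over arrays, two-sided, adjusted p = 0.471 and 0.629 over the 3 pairs that could be tested, smallest possible p = 0.0286). With the less bright App probe set the shifts were 0.36 (adjusted p = 0.0429) and 0.24 (adjusted p = 0.0857). These tests exchange all 8 arrays freely. With the ages exchanged only between arrays of the same number, 16 orderings allow no p below 0.125, and both shifts against that App probe set gave an adjusted p of 0.125. Exchange within a number could therefore not pass at any value and decides nothing here. Of the shifts against App with free exchange, only that of Aplp2 against the less bright App probe set passed. That choice of probe set was made after seeing the data. Its adjusted p also depends on the other pairs, since Psen2 minus Ncstn reached the smallest possible p as well (0.0286, exact permutation test).

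**Figure D3:**
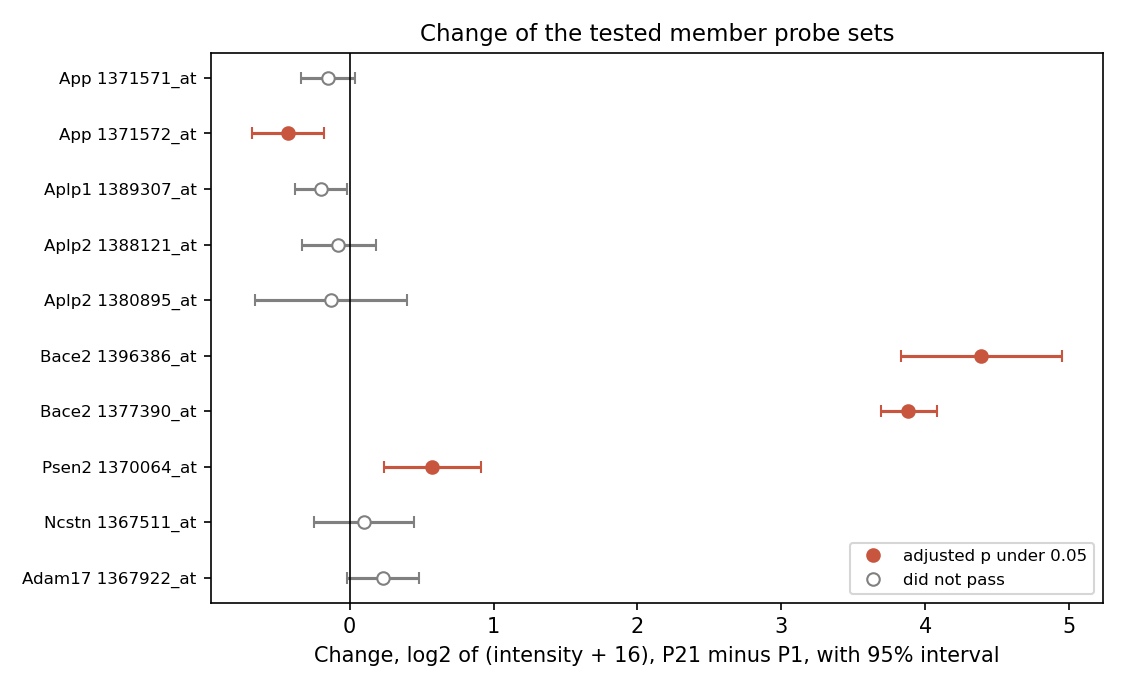
Change of the 10 tested member probe sets between the ages, as log2(intensity + 16) at P21 minus P1 with the 95% interval of the limma fit; filled points passed at an adjusted p under 0.05. The Bace2 probe sets stand at 4.39 and 3.88, Psen2 at 0.57 and 1 App probe set at -0.43, and the other intervals lie between -0.66 and 0.48.

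Bace2, a protease related to beta-secretase that is known for cutting the pigment protein PMEL in melanocytes, and the precursor itself within the amyloid-beta stretch, had the largest change of the members. The probe set 1377390_at read 79.4, 96.2, 87.6 and 87.4 at P1 and 1438, 1508, 1490 and 1620 at P21. The probe set 1396386_at read 122, 82.4, 64.5 and 38.2 at P1 and 1726, 1676, 1724 and 2212 at P21. On both, every P1 array was under the filter level and every P21 array far above it.

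The rise in Bace2 was at least 5.71-fold on the first probe set (change 3.88 ± 0.09, adjusted p = 1.11e-08) and at least 6.87-fold on the second (change 4.39 ± 0.25, adjusted p = 2.16e-06). The fold is given as a bound, against the filter level of the P1 arrays, because the P1 signal was not above it, and the fitted change depends on the constant added before the logarithm. With 1 or 64 added in place of 16, the change of the first probe set was 4.10 or 3.38. Its 2 probe sets correlated at 0.985 over the 8 arrays, a value that the gap between the ages sets. Oligodendrocyte markers rose on the same arrays, and Mog, Mobp and Opalin of that list were, like Bace2, under the filter level on all P1 arrays. Their part in the Bace2 result was not tested.

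Over the 8 arrays, the genes with the pattern most like that of Bace2 (1396386_at, Pearson correlation of log2 values) were Uts2, Mag, Extl1, Mog and Mitf, at 0.9953, 0.9952, 0.9950, 0.9949 and 0.9944. The arrays fall into 2 ages, and 29 of 10960 genes exceeded 0.99, so the order among them carries little. Uts2, the vasoactive peptide urotensin 2, rose from 3687 ± 316 to 7100 ± 195. Mag, a myelin glycoprotein facing the axon, rose from 993 ± 125 to 3062 ± 201. Mog, a protein of the outer face of central myelin, rose from 173 ± 34.9 to 2910 ± 146, at least 10.9-fold. Extl1, an enzyme of the exostosin family that builds heparan sulfate, rose at least 3.64-fold, and Mitf, a transcription factor of pigment cells, at least 2.02-fold.

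Bace1, the main beta-secretase of neurons, was not measured above the filter level. Its probe set 1369256_at read 57.3, 90.3, 53.5 and 61.7 at P1 and 81.1, 89.8, 7.90 and 88.0 at P21, with the ages overlapping. Run without the filter its change was -0.18 ± 0.46 (adjusted p = 0.824). The planned comparison of Bace2 with Bace1 was therefore not made. The low reading of 1 probe set does not settle the level of Bace1 RNA, and it says nothing of the level of the Bace1 protein.

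Psen2, presenilin 2, carries the catalytic site of one form of gamma-secretase and is found largely in late endosomes and lysosomes. It read 712, 474, 762 and 749 at P1 and 962, 947, 1039 and 1030 at P21. Every P21 array lay above every P1 array, and P1 replicate 2 was well below the other P1 arrays. Psen2 rose by 0.57 ± 0.15 (1.49-fold, adjusted p = 0.0134). Without P1 replicate 2 the rise was 0.42 (adjusted p = 0.00729), and with arrays centred on their medians 0.44, which did not pass (adjusted p = 0.0917).

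Ncstn, nicastrin, is the large outer subunit through which gamma-secretase admits its substrates. Its probe set 1367511_at read 1311, 906, 1109 and 1471 at P1 and 1346, 1064, 1296 and 1387 at P21. The ages overlapped almost fully. The change was 0.10 ± 0.16 (95% interval -0.25 to 0.45, adjusted p = 0.645), and -0.04 with centred arrays. On both ages the arrays numbered 2 read lowest.

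The difference of Psen2 and Ncstn on the log2 scale rose from -0.82 ± 0.19 at P1 to -0.35 ± 0.14 at P21. This shift of 0.47 reached the smallest p that 4 against 4 arrays can give (exact permutation test, two-sided, p = 0.0286). It did not reach the threshold once adjusted over the 3 pairs (0.0857). That adjusted value holds with the brightest App probe set in the pairs with App, and depends on that choice. Exchange within a number gave an adjusted p of 0.375, but allows no p below 0.125 and so could not pass. The other Ncstn probe set, 1396543_at, stood near the filter level (215 to 317) and was not tested.

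Of the alpha-secretases, Adam17, which also releases tumour necrosis factor, read 727, 692, 884 and 886 at P1 and 892, 911, 1035 and 892 at P21. All P21 arrays were above all P1 arrays, but P1 replicates 3 and 4 came within a few units of the lowest P21 array. The change of 0.23 ± 0.11 did not pass (95% interval -0.02 to 0.48, adjusted p = 0.139). Adam10, the main alpha-secretase of neurons, has 2 probe sets that read 49.2 to 148 and 12.6 to 54.8 at P1 and 24.0 to 128 and 29.2 to 65.7 at P21. Both lay under the filter level on all arrays, and the planned comparison of Adam17 with Adam10 was not made. Their low readings do not settle the level of Adam10 RNA.

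Other genes of the pathway were read from 5 lists, with 1 probe set per gene, the brightest tested one. Of all 10961 genes tested, 39.4% passed (22.0% higher, 17.4% lower), with a median change of 0.05. Of 5 tested genes of other gamma-secretase subunits and modulators, 0 rose and 1 fell (20% called, median -0.18). At an unadjusted p under 0.05 by limma the counts were also 0 and 1. Aph1a, a scaffold subunit, read 2069, 1760, 2116 and 1864 at P1 and 1287, 1466, 1710 and 1411 at P21. It fell by 0.41 ± 0.11 (adjusted p = 0.0169), a call lost without P1 replicate 3 (adjusted p = 0.0507). Psenen, the smallest subunit, read 5642 ± 198 and 6067 ± 143 (change 0.10, adjusted p = 0.330), and -0.03 with centred arrays. It passed with quantile normalization (0.18, adjusted p = 0.0475). Aph1b is not analysed here.

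**Figure D4:**
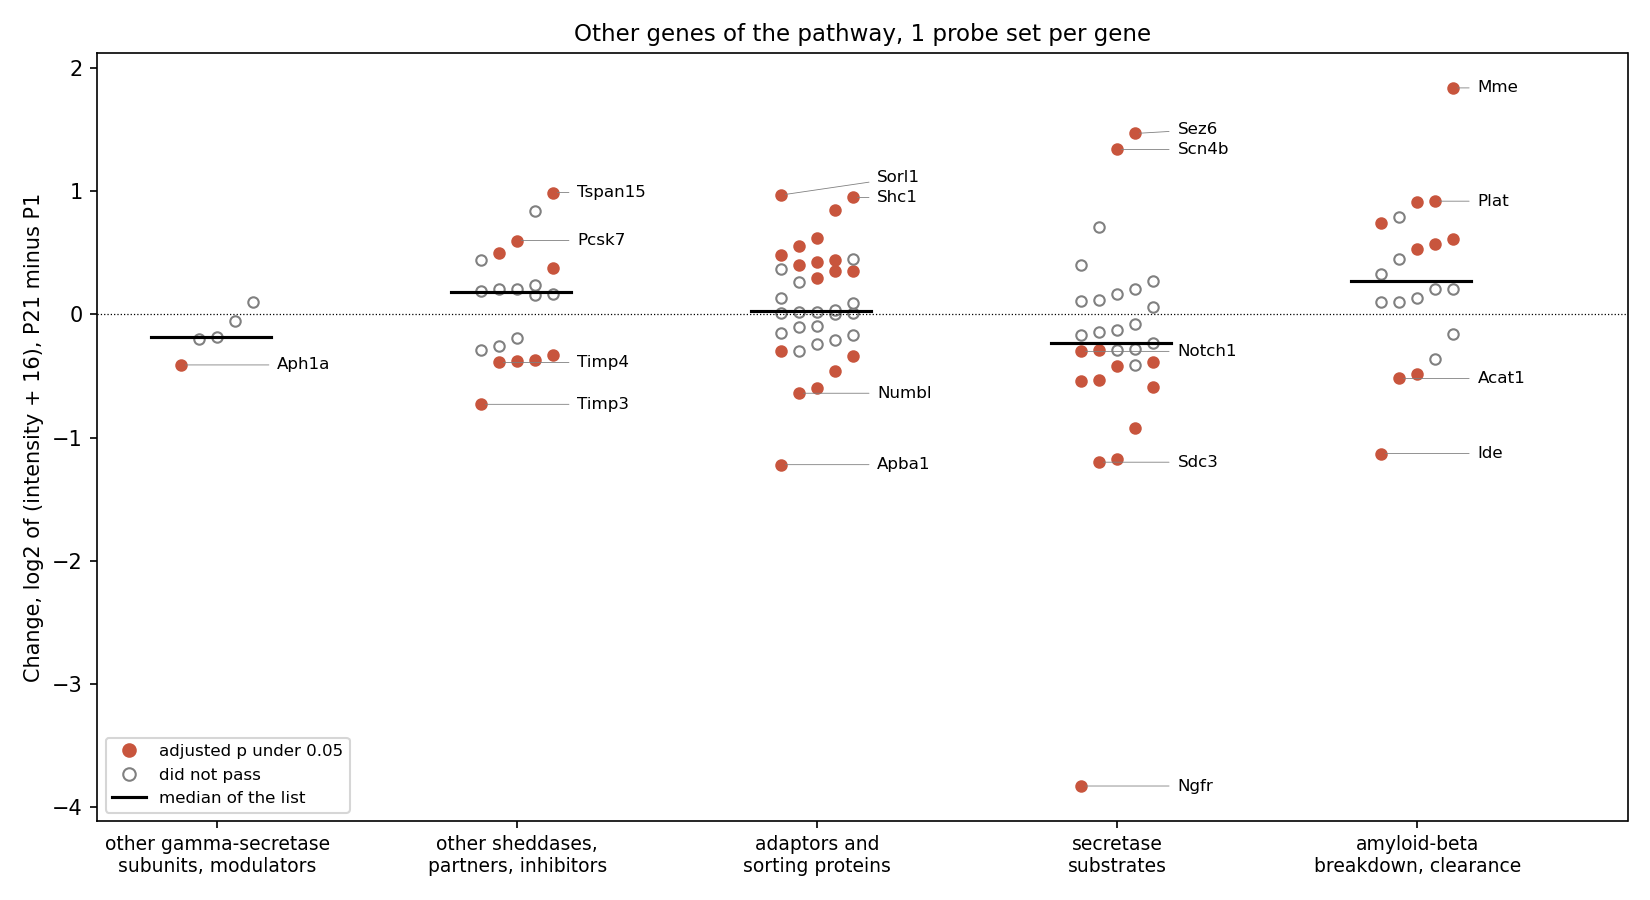
Change of each tested gene in 5 lists of the pathway, as log2(intensity + 16) at P21 minus P1; filled points passed at an adjusted p under 0.05, black lines are list medians, and the genes chosen by the naming rule that passed are labelled. Called genes lie on both sides of 0 in 4 of the 5 lists, Mme (1.84) and Sez6 (1.47) stand highest and Ngfr (-3.83) lowest.

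Among other membrane sheddases with their partners and inhibitors, 4 of 20 rose and 5 fell (45% called, median 0.18), and 5 in all were called without P1 replicate 4. The rises include Adam22 and Adam23, ADAM proteins without protease activity, while Adam11 did not pass (0.24, adjusted p = 0.151 by limma). Of the tested ADAM proteases in the list, Adam8 and Adam15 did not pass and Adam19 fell (-0.37 ± 0.11). Tspan15, a tetraspanin that partners ADAM10 and steers it to its substrates, rose from 737 ± 76.0 to 1482 ± 205 (0.99 ± 0.13, adjusted p = 2.32e-04). Pcsk7, a proprotein convertase, rose by 0.60 ± 0.13. Timp3, the tissue inhibitor that blocks ADAM17 and ADAM10, fell from 5222 ± 285 to 3201 ± 679 (-0.73 ± 0.15, adjusted p = 0.00365). Its other 2 tested probe sets also fell, by 0.90 and 1.67. Timp4 fell by 0.39 ± 0.09.

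Of 36 tested adaptors and sorting proteins, 12 rose and 6 fell (50% called, median 0.03), and the rises were 5 with centred arrays and 7 without P21 replicate 3. Sorl1, a sorting receptor that holds the precursor back from the endosomes where it is cut, read 3727, 2839, 3501 and 2786 at P1 and 6899, 5586, 6869 and 5869 at P21. Sorl1 rose by 0.97 ± 0.13 (1.96-fold, adjusted p = 3.01e-04), and its 6 further tested probe sets rose by 0.80 to 1.40. Shc1, an adaptor that can bind the tail of the precursor, rose by 0.95 ± 0.12.

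Apba1, also called X11 or Mint1, binds the tail of the precursor and slows its processing. It read 2865, 2652, 2927 and 2878 at P1 and 1398, 953, 1391 and 1132 at P21. Apba1 fell by 1.22 ± 0.13 (2.33-fold, adjusted p = 8.21e-05), while its dim probe set 1387425_at had a change of 0.04. Numbl fell by 0.64 ± 0.17. Apba2, the related Mint2, was spread widely, from 616 to 2422 at P1 and from 1288 to 2460 at P21, and did not pass (adjusted p = 0.399).

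Of 29 tested secretase substrates, 2 rose and 11 fell (44.8% called, median -0.23). The rises were Sez6, a substrate cut mostly by BACE1, from 980 ± 56.8 to 2751 ± 241 (1.47 ± 0.10, adjusted p = 4.58e-06), and Scn4b, a sodium channel beta subunit, by 1.34 ± 0.08. The fall was largest for Ngfr, the p75 neurotrophin receptor, from 3728, 3088, 3925 and 4181 at P1 to 244, 224, 422 and 157 at P21 (-3.83 ± 0.25, adjusted p = 3.95e-06). Ngfr was above the filter level on 1 of 4 P21 arrays, so the size of this fall depends on the added constant, at -3.91 with 1 and -3.59 with 64. Sdc3, a heparan sulfate proteoglycan, fell by 1.20 ± 0.21 on its brightest probe set (1231 to 517 in the means). Its dimmer probe set, near the filter level at P1, rose by 0.64 (277 to 423 in the means, adjusted p = 0.0349 by limma). Notch1 fell by 0.30 ± 0.09 (adjusted p = 0.0316), a call lost without any 1 of P1 replicates 1, 3 and 4 or P21 replicates 1, 3 and 4 (adjusted p of 0.0508 to 0.0897) and without the filter (0.0679), and its other probe set stood at 0.20.

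Nrg1, neuregulin 1, the axonal signal that sets myelin thickness in peripheral nerve, was read by 5 tested probe sets that disagreed. The brightest, 1370607_a_at, read 6083, 4362, 3453 and 3724 at P1 and 5919, 4553, 3509 and 2471 at P21 (change -0.14 ± 0.27, adjusted p = 0.719). The others had changes of -0.12, 0.25, 0.68 and 1.00, of which the last, 1371212_at, passed (269 to 556 in the means, adjusted p = 7.53e-05). Nrg1 makes many transcript forms, and which form each probe set reads was not examined.

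Of 20 tested genes of amyloid-beta breakdown and clearance, 7 rose and 3 fell (50% called, median 0.27), and 4 rose with the filter at the 60th percentile, which removes dimmer genes. Mme, the membrane protease neprilysin, read 152, 149, 113 and 70.5 at P1 and 616, 306, 289 and 796 at P21. Mme rose at least 1.77-fold (change 1.84 ± 0.34, adjusted p = 0.00221), with P21 values that spread widely. Like Bace2, Mme passed the filter through its P21 arrays alone, as did Mmel1, another of the rises (at least 1.69-fold). Plat, tissue plasminogen activator, rose by 0.92 ± 0.12. Ide, the insulin-degrading enzyme, went 2 ways: its bright probe set 1398977_at fell from 4679 ± 474 to 2129 ± 240 (-1.13 ± 0.12, adjusted p = 6.36e-05), and its dimmer one, 1387652_at, rose by 0.53 (687 to 1004 in the means, adjusted p = 0.00418). Acat1, the mitochondrial acetyl-CoA acetyltransferase, fell by 0.52 ± 0.12, and by 0.39 as the mean of its probe sets, which did not pass (adjusted p = 0.0689). It is not an enzyme of amyloid-beta breakdown, and without it, a choice made after seeing the data, 7 of 19 genes rose and 2 fell (47.4% called, median 0.33). Over the 5 lists, 11 genes had at least 2 called probe sets, and in 3 of them (Ide, Sdc3 and Snx27) the calls were opposed.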

How the data were processed

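The table the authors deposited gives linear intensity values of 31042 probe sets on 8 arrays (4 P1, 4 P21). Per the labels' protocols, 12 µm sections were stained with cresyl violet, and about 50 ng RNA was amplified in 2 rounds from oligo(dT) primers, which favours 3′ ends. Probe summary, background correction and scaling are not given in the sources used here. Symbols came from the platform annotation: 20826 probe sets had 1 symbol, 436 several and 9780 none.

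Negative values were raised to 0, then log2(intensity + 16) was fitted with limma 3.58.1 in R 4.3.3 (lmFit, eBayes, Benjamini-Hochberg). For arrays, their number limits the precision. In data simulated for this comparison over 19155 probe sets, limma recovered 17 of 66 changes of 0.5 (log2), so small changes can be missed. It recovered 48 of 67 changes of 1 and 64 of 67 of 2. Far fewer probe sets were changed there than the 38.3% called in the data, which makes the adjusted threshold stricter. The shares recovered are therefore those of that setting alone. Where all 4 arrays of an age were under the filter level, a fold is a bound against that level. Genes named in each list are the 2 largest called rises and falls, with Psenen, Aph1a, Aph1b, Sorl1, Apba2, Notch1, Nrg1, Ide and Mme fixed by name; a further fixed name is not reported here. Members and lists were chosen with earlier results of these data known.

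Across tested probe sets, P1 and P21 arrays of the same number deviated from their age means together. The correlations were 0.514, 0.321, 0.558 and 0.150 for numbers 1 to 4. The design text divides 4 litters between the ages, so the number may mark a pair. The main fit and the free permutation tests did not use the number, and pairing by it entered only as an alternative. The pairing is not clean: array 4 of P1 correlated more closely with array 3 of P21 (0.366), and array 1 of P1 with array 2 of P21 (0.262), than the arrays numbered 4 did with each other. Alternatives were the added constant, the filter, centring, quantile normalization, the replicate number as a block, the mean of a gene's probe sets and leaving out each array on the same probe sets.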

Additional observations from a re-analysis of the deposited data

Results flagged for a closer look

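In 6 of 78 groups of 4 arrays examined (7.69%), the highest or lowest array stood apart from the other 3, where chance gives about 1 group in 20. P21 replicate 4 was high for Bace2 1396386_at (2212, others 1676 to 1726) and low for Adam10 1388161_at (24.0, others 115 to 128). P21 replicate 3 was high for Adam17 (1035, others 892 to 911) and low for Bace1 (7.90, others 81.1 to 89.8). P1 replicate 4 was low for App 1380533_at (23.1, others 78.0 to 82.5), and P1 replicate 2 for Tspan15 (624, others 762 to 786). The Bace1, Adam10 and App values of this group lie under the filter level. Without P21 replicate 4, the change of Bace2 1396386_at was 4.30 (adjusted p = 1.21e-05).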

How the results depend on the processing

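The count of called member probe sets was 4 under every alternative run on probe sets. Of 149 alternative values of the member probe sets, 144 kept their direction and their side of the threshold. The exceptions were Psen2 (0.44, adjusted p = 0.0917) and Aplp1 (-0.33, adjusted p = 0.0463) on centring, Ncstn (-0.04 on centring and -0.02, without P1 replicate 2, to 0.21 with an array left out) and Aplp2 1388121_at (-0.13 to 0.01, the latter without P21 replicate 4). Over all probe sets 7329 were called, 8805 with the replicate number as a block, and 5985 to 7419 with 1 array left out. The block changed no call of a member or of a named gene. The call count of the other gamma-secretase genes was 1, 2 with quantile normalization and 0 to 1 with an array left out, and that of the other sheddases 9, and 5 to 9. Aplp1 minus App, -0.05, was -0.10 to 0.01 with an array left out and 0.24 with App by 1371572_at, and Aplp2 minus App, 0.07, was 0.36 with that probe set, a choice made after seeing the data. The latter passed with arrays exchanged freely (adjusted p = 0.0429). Exchange within a number, as a replicate block, also added after seeing the data, gave an adjusted p of 0.125 and allows none below it. Psenen was -0.03 on centring, and Nrg1 0.33 as the mean of its probe sets, 0.03 without P1 replicate 1 and 0.08 without P21 replicate 4. Sdc3, as the mean of its probe sets, was -0.28 and did not pass (adjusted p = 0.135), nor did Notch1 (-0.05). The cause of these shifts was not tested. Low signal limits Bace1, Adam10 and the P1 level of Bace2. Whether brightness limits App 1371571_at was not tested.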

Other observations

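Further genes of the lists, named here after their values were seen, are given with their changes. Itm2c, a membrane protein of the BRI family that binds the precursor, rose from 4627 ± 227 to 6441 ± 205 (0.48 ± 0.08, adjusted p = 0.00150 by limma), while its relative Itm2b read 6644 ± 251 and 6259 ± 306 and did not pass (-0.09). Gga1, an adaptor that carries BACE1 between endosomes and the Golgi, rose from 748 ± 54.0 to 1165 ± 132 (0.62 ± 0.11), and Gga2 (-0.17) and Gga3 (0.09) did not pass. The differences among relatives were not tested.

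The endothelin-converting enzyme genes Ece1 (0.57 ± 0.10) and Ece2 (0.53 ± 0.12) and the lipid transporter gene Abca7 (0.74 ± 0.11) rose. The related transporter gene Abca1 fell (-0.48 ± 0.13, adjusted p = 0.0178 by limma). The other tested probe sets of Ece2 (0.28, adjusted p = 0.115) and Abca1 (-0.13, adjusted p = 0.425) did not pass. Adam22 (0.38 ± 0.11) and Adam23 (0.50 ± 0.09), ADAM proteins without protease activity that anchor LGI ligands at synapses and axons, rose as well. Adam23 rose by 1.60 on its other probe set, and Adam11 of the same list did not pass (0.24 ± 0.12). Chl1, an adhesion molecule cut by BACE1, fell from 1052 ± 68.8 to 552 ± 61.1 (-0.92 ± 0.10, adjusted p = 1.22e-04).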
